A study of Mus musculus with 12 samples.

Results

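The question addressed here was whether the response of the mouse colon epithelium to dietary quercetin depends on the genotype of the mouse. It was read from the difference between 2 responses, quercetin minus control diet in POR-null mice less quercetin minus control diet in wild type mice, called the interaction below. A positive interaction means that the response was higher in POR-null mice. All 12 arrays of the series entered, in 4 groups of 3, and the interaction was computed for 22626 probe sets, of which 20380 carried 1 gene symbol and stood for 12393 genes.

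The groups were wild type mice on the control diet, wild type mice on quercetin, POR-null mice on the control diet and POR-null mice on quercetin. All were male C57BL/6 mice of 6 to 8 weeks, per the labels, kept for 14 days on a soya-free powdered diet and then for 24 hours on that powder alone or with 6200 ppm quercetin, about 7 mg per mouse. Each array held biotin-labelled RNA from the scraped colon epithelium of a pool of 3 mice, so a group stands for 9 mice, and p-values measure the spread between pools. The labels do not say which promoter drives the deletion in the POR-null line. The published line of this kind lacks the gene in hepatocytes, and colon cells would then still carry it. The deleted gene itself is not analysed here, so the genotypes are as the labels give them and were not checked.

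Quercetin is a plant flavonol that intestinal cells take up and conjugate with glucuronic acid, sulfate and methyl groups, and it is known as a ligand of the aryl hydrocarbon receptor and as an activator of the antioxidant factor NRF2. POR, the cytochrome P450 reductase, passes electrons to the microsomal P450 enzymes. The liver uses these enzymes to make bile acids and to clear drugs and plant compounds, so a hepatic loss can reach the gut through bile, diet-derived metabolites and hormones in the blood.

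No interaction passed the threshold of 0.05 after Benjamini-Hochberg adjustment over all probe sets by limma, 0 of 22626, and the smallest adjusted p was 0.450. At an unadjusted p under 0.05 there were 1073 probe sets (4.74%), of which 413 (1.83%) were higher in the POR-null response and 660 (2.92%) lower. Neither single response passed either, with 0 probe sets in wild type (1165, or 5.15%, at an unadjusted p under 0.05) and 0 in POR-null (637, or 2.82%). The median standard error (SE) of an interaction was 0.16 log2 units, and a single probe set at that SE would have needed an interaction of 1.28 log2 units, or 2.43-fold, to pass. The 95% interval lay wholly between -1 and 1 log2 units for 21437 probe sets (94.7%). For these the arrays bound the difference between the genotypes to less than 1 log2 unit either way, and 232 probe sets had an estimate beyond that, 67 higher and 165 lower.

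The responses of the genotypes were weakly and inversely related. Across probe sets the correlation of the wild type response with the POR-null response was -0.33, given as a description over 22626 probe sets that share the same arrays. Over all probe sets the sign was opposite in 11430 (50.5%). Complete separation in opposite directions, with all 3 quercetin arrays below all 3 control arrays in 1 genotype and above them in the other, was seen for 82 probe sets (0.362%), and separation in the same direction for 54 (0.239%). Leaving out POR-null quercetin array 2 changed the correlation to -0.17, and leaving out that array and wild type control array 1, the 2 arrays of the highest pancreatic gene signal, to -0.15.

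**Figure D1:**
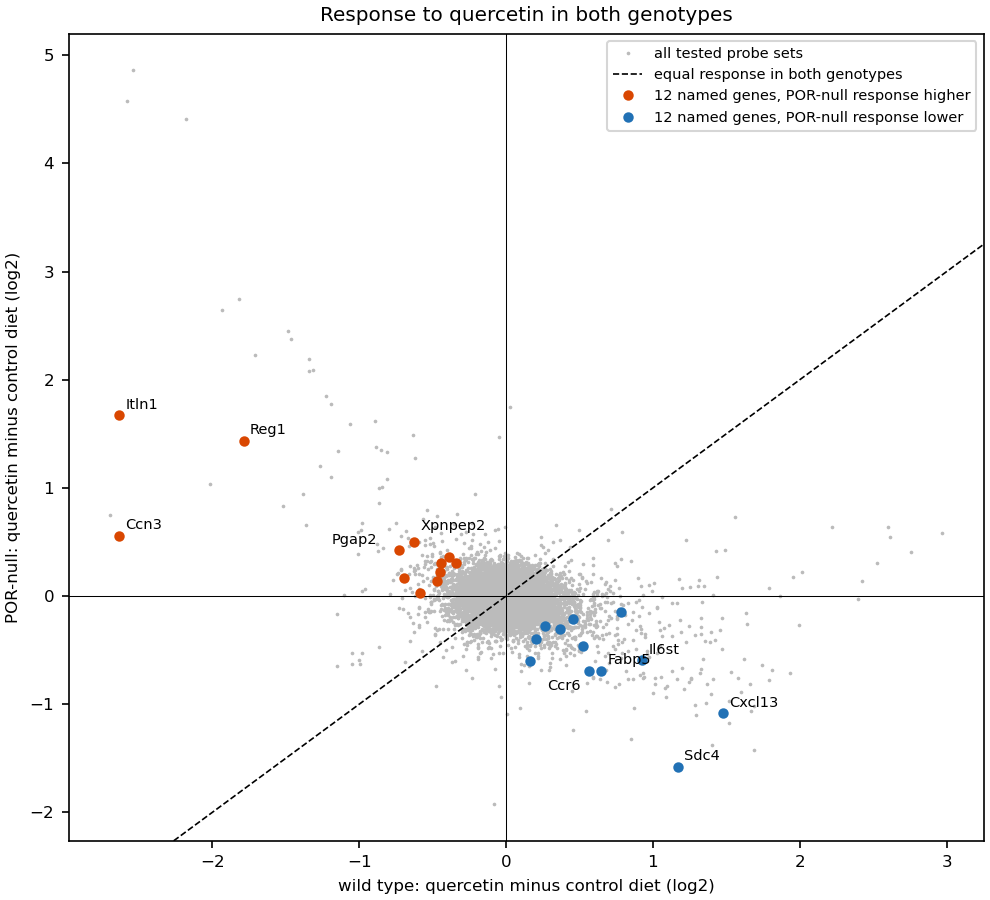
Each point is 1 of 22626 probe sets, with the wild type response to quercetin on the x axis and the POR-null response on the y axis (log2, quercetin minus control diet). Orange and blue points are the 24 genes named by smallest interaction p, of which all 24 lie in the quadrants of opposite sign, and those beyond 1 log2 unit in interaction are labelled.

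The 24 named genes were the 12 higher and the 12 lower genes of smallest unadjusted interaction p among probe sets of at least median signal. As they were chosen on the interaction, their sizes and the opposite signs in 24 of 24 are a description. So are the counts of separated groups below, which the choice favours, so that the shares over all probe sets are no test of them. Pgap2 and Bnip2 reached the signal filter only through 1 group, the wild type control (5.99) and the POR-null control (5.96). No named gene passed the adjustment, and the adjusted p of limma was 0.450 for Ccn3 and 0.998 for the other 23. Responses separated completely and in opposite directions in 5 of the 12 higher genes (0.168% of all probe sets) and in 5 of the 12 lower ones (0.194%). Within wild type mice 11 of the higher and 10 of the lower genes did not overlap between diets (9.31% of all probe sets), and within POR-null mice 6 and 7 (6.75%). The wild type response was the larger in 12 of the 12 higher genes and in 6 of the 12 lower ones.

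Promoter sequence was looked at for the response elements of the 2 factors through which quercetin is known to act. Of the 24 genes, 20 matched the RefSeq promoter table of GRCm38.p6, and Ccn3, Deptor, Gpd1 and Fabp5 did not. In the 250 bases before the start, the xenobiotic response element core GCGTG on either strand was held by 6 of 20 (30.0%), against 28.2% of 27025 promoters. The antioxidant response element core TGACNNNGC was held by 1 of 20 (5.0%), against 10.1% of all. A TATAAA box was held by 4 of 20 (20.0%), against 13.0%, and CCAAT by 5 of 20 (25.0%), against 34.5%.

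Printed 5′ to 3′ on the gene's strand and with these response element cores in capitals are the promoters of the lower genes of smallest p, Sdc4 (chr2:164443189-164443438, minus strand) and Gas5 (chr1:161034351-161034600, plus strand), of Sco2 (chr15:89373892-89374141, minus strand), which held 3 xenobiotic cores, and of Cxcl13 (chr5:95956689-95956938, plus strand), which held a core of each kind. Gas5 held neither core. Gas5 has 2 listed starts and 1 of them is shown.
Sdc4: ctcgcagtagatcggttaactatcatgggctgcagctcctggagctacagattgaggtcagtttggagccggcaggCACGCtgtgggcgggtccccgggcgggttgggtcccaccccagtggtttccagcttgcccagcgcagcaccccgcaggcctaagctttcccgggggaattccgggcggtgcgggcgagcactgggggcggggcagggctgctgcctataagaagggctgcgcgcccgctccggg
Gas5: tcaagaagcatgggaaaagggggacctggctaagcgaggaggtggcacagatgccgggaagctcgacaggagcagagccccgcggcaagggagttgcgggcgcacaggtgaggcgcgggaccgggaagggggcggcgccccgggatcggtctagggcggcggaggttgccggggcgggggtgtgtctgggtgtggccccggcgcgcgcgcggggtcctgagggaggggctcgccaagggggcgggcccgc
Sco2: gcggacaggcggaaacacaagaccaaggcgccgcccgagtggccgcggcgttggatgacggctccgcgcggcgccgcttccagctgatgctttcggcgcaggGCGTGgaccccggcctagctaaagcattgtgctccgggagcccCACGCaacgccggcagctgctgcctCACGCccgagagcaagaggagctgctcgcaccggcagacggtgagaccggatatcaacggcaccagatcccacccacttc
Cxcl13: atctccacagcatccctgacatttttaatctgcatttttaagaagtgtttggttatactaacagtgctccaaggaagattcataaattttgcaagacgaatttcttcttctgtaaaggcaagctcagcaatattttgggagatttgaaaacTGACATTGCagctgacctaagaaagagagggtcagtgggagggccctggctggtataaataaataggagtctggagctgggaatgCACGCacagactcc
A match is a description of the letters only. Of the 6 genes with a xenobiotic core, Sco2 is 1 of the higher genes, and Sdc4, Cxcl13, Dync1h1, Sorl1 and Bnip2 are lower genes. Over the 20 genes the share was 30.0%, against 28.2% of all promoters. With so few genes the split is not read as a trait of either direction.

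Ccn3, a secreted matrix-associated protein of the CCN family, had the smallest interaction p. In wild type mice its log2 signal was 6.93, 7.46 and 7.13 on the control diet and 5.47, 4.42 and 3.72 on quercetin. The POR-null values were 6.12, 6.09 and 5.49 on the control diet and 5.96, 6.79 and 6.63 on quercetin. The 3 wild type quercetin arrays were thus the lowest of the 12, and the POR-null groups overlapped. The signal was 6.22-fold lower with quercetin in wild type mice and 1.47-fold higher in POR-null mice, an interaction of 3.20 log2 units (SE 0.50, 95% interval 2.11 to 4.28, unadjusted p 2.57e-05 by limma). A further probe set of Ccn3 gave 3.44. Without wild type quercetin array 1, the highest of its group for this gene, the interaction was 3.66 and the adjusted p of limma 0.0107. Ccn3 was the only named interaction gene to pass with any single array left out. With each other array left out in turn the adjusted p of limma for Ccn3 ran from 0.103 to 0.9997. Its interaction was 2.79 without wild type quercetin array 3.

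Deptor, an inhibitory partner of the mTOR kinase, is the next measured gene to Ccn3 in the order of the RefSeq table. Its wild type signal was 9.12, 9.02 and 9.22 on the control diet and 8.65, 8.31 and 8.31 on quercetin, without overlap. The POR-null values were 8.79, 8.97 and 8.96 on the control diet and 8.86, 9.09 and 9.27 on quercetin, with overlap. The interaction was 0.86 (SE 0.18), and other probe sets of Deptor gave 0.35 and 0.08. Among the 6 genes measured on each side of Ccn3, 12 genes with 22 probe sets, 4 probe sets had an unadjusted p under 0.05 (4.74% of all probe sets). Both that were higher belonged to Deptor, the lower ones were Ext1 (-0.46) and Med30 (-0.34), and the neighbours ran from -0.46 to 0.86. Deptor was itself chosen for a small interaction p, which favours this count, so the share over all probe sets is no test of it. Of the other 20 measured genes of the mTOR pathway list, Ddit4, a stress-induced inhibitor of the pathway, gave -0.76 and Rheb, its activating GTPase, 0.28. The list's 21 genes had a median interaction of -0.02.

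Sdc4 and Gas5 led the lower genes. Sdc4, a heparan sulfate proteoglycan of the cell surface, had a wild type signal of 9.39, 7.71 and 7.83 on the control diet and of 9.92, 9.37 and 9.15 on quercetin. In POR-null mice it was 9.66, 8.54 and 8.54 on the control diet and 7.47, 7.39 and 7.15 on quercetin. The POR-null groups did not overlap and the 3 POR-null quercetin arrays were the lowest of the 12, while wild type control array 1 lay within the wild type quercetin range. Quercetin arrays were 2.25-fold higher in wild type mice and 2.98-fold lower in POR-null mice, an interaction of -2.75 (SE 0.56, 95% interval -3.96 to -1.53). The other probe set of Sdc4 gave 0.32, so the pair disagree in sign.

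Gas5, a noncoding RNA that hosts small nucleolar RNAs and accumulates when growth stops, had a wild type signal of 8.46, 8.14 and 8.21 on the control diet and of 9.34, 8.85 and 8.96 on quercetin. POR-null arrays gave 9.18, 8.82 and 8.93 on the control diet and 8.87, 8.90 and 8.71 on quercetin. Here the wild type control group stood apart: its 3 arrays were below each of the other 9, which lay between 8.71 and 9.34. The interaction was -0.93 (SE 0.20), and all 4 probe sets of Gas5 were negative, from -0.93 to -0.46.

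**Figure D2:**
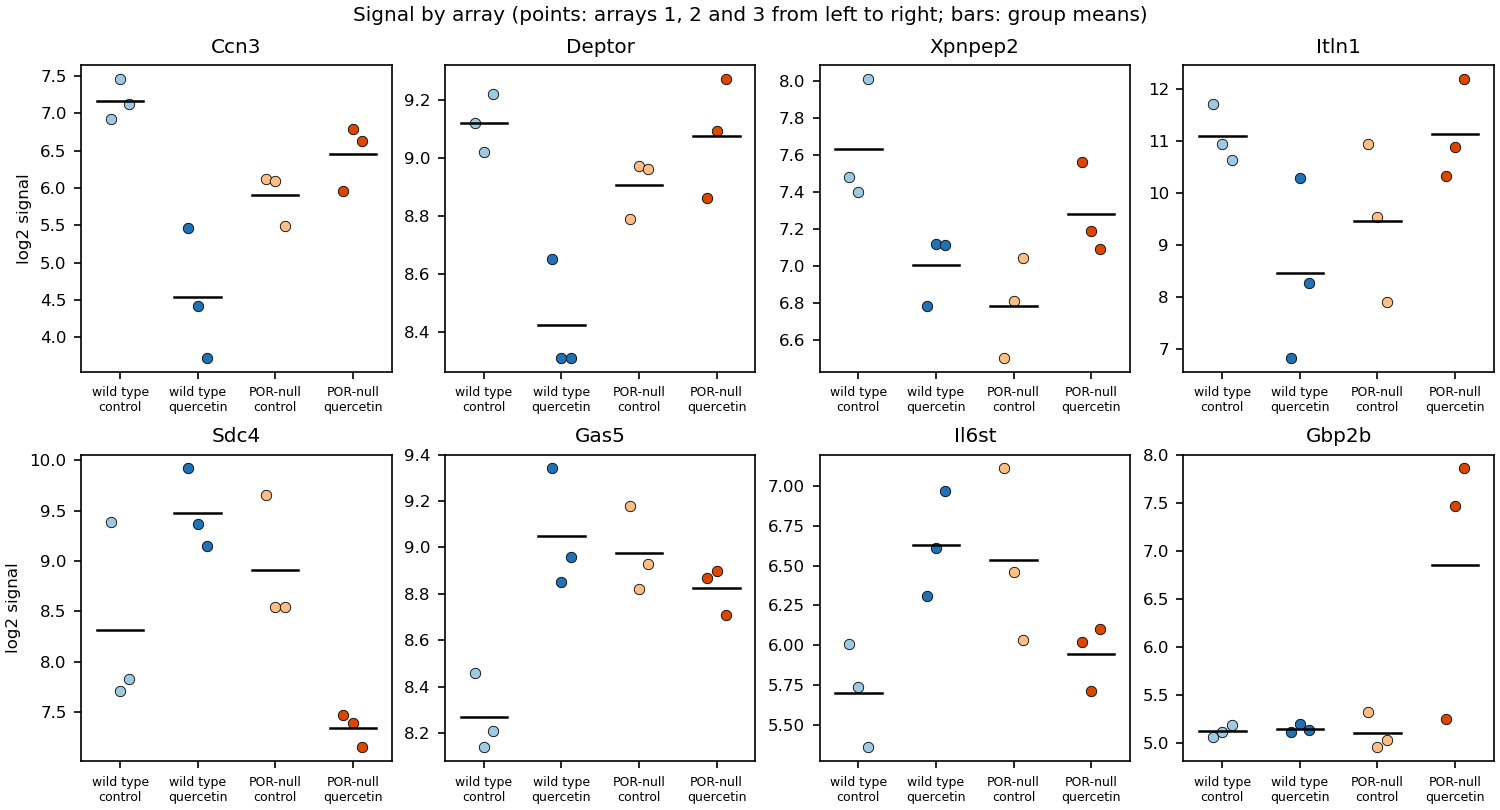
Log2 signal of 8 genes in each of the 12 arrays (points) with group means (bars), by genotype and diet. Ccn3 is lowest in the 3 wild type quercetin arrays, Gas5 in the 3 wild type control arrays and Sdc4 in the 3 POR-null quercetin arrays, and Gbp2b is high in POR-null quercetin arrays 2 and 3 only.

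Among the other higher genes, Xpnpep2, a brush border aminopeptidase, separated in both genotypes. Its signal was 7.48, 7.40 and 8.01 against 6.78, 7.12 and 7.11 on quercetin in wild type mice, and 6.50, 6.81 and 7.04 against 7.56, 7.19 and 7.09 on quercetin in POR-null mice. The interaction was 1.12 (SE 0.26). The fructose kinase Khk gave 0.74, the glycerol phosphate dehydrogenase Gpd1 0.75, the red cell and glycolytic mutase Bpgm 0.64, and the mitochondrial proteins Sco2, which carries copper to cytochrome oxidase, and Chchd3, a part of the cristae, 0.61 and 0.60. For Khk the wild type arrays were 7.61, 7.28 and 7.31 against 6.92, 6.89 and 7.07 on quercetin. A brighter probe set of Chchd3 gave -0.09, and other probe sets of Gpd1 gave 0.02 to 0.85. The serine incorporator Serinc3 gave 0.67 and Pgap2, a protein of GPI anchor maturation, 1.16, but 2 brighter probe sets of Pgap2 gave -0.01 and 0.02.

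Itln1 and Reg1 had the widest differences with the widest spread. Itln1, the intestinal lectin intelectin of goblet and Paneth cells, ran from 10.63 to 11.71 in wild type controls and was 6.82, 10.29 and 8.27 on quercetin. In POR-null mice it was 10.95, 9.54 and 7.90 on the control diet and 10.33, 10.89 and 12.19 on quercetin. The interaction of 4.31 had an SE of 1.17. Reg1, a regenerating protein of the pancreas and gut, gave 3.22 (SE 0.88). Its highest array was POR-null quercetin array 2, at 8.32 against 5.83 and 5.26 in the other two, which is the array of the highest pancreatic gene signal. Without that array the interaction of Reg1 was 2.30.

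Among the other lower genes, Cxcl13, the chemokine that draws B cells into follicles, was 6.44, 5.31 and 5.53 against 6.63, 7.77 and 7.31 on quercetin in wild type mice, without overlap. In POR-null mice it was 8.10, 6.34 and 6.80 against 5.74, 5.60 and 6.65 on quercetin, with overlap. The interaction was -2.56 (SE 0.63), and a further probe set gave -0.76. Ccr6, the receptor for the epithelial chemokine CCL20, gave -1.26 (SE 0.30), with all 3 POR-null quercetin arrays (5.97 to 6.07) below the POR-null controls (6.34 to 7.28). Il6st, the signalling chain gp130 of the interleukin 6 receptor family, gave -1.52 (SE 0.35), and its wild type arrays were 6.01, 5.74 and 5.36 against 6.31, 6.61 and 6.97 on quercetin. In bulk tissue fewer cells of a type and less RNA per cell cannot be told apart.

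The remaining lower genes were of mixed function. Dync1h1, the heavy chain of cytoplasmic dynein, had the smallest SE (0.12) and an interaction of -0.54. Its arrays were 8.98, 8.92 and 8.89 against 9.20, 9.26 and 9.12 on quercetin in wild type mice and 9.34, 9.46 and 9.29 against 9.13, 9.11 and 9.03 in POR-null mice, separated in both. The ETS factor Elk4 also separated in both, at 7.88 to 8.18 against 8.33 to 8.38 and at 8.35 to 8.44 against 7.94 to 8.23. Its interaction was -0.67, but a further probe set gave 0.04. Fabp5, a fatty acid binding protein, gave -1.34, the sorting receptor Sorl1 -0.76, the zinc finger proteins Zbtb20 and Zfp46 -0.67 and -0.60, and Bnip2 -0.99. Of the 24 named genes, 17 had 32 other probe sets, and 28 of those had the sign of the named one. Among the 17 other probe sets of at least median signal the sign was shared by 13.

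The signs and sizes were followed with arrays left out and with tissue markers as covariates. All 24 kept their sign with each array left out in turn. They were chosen on these same arrays for a small p, so a turned sign was unlikely from the start. With the array means of smooth muscle, pancreatic acinar and MHC class II genes as 3 covariates all 24 kept their sign too, but 10 shrank by more than 1.5 times and 12 of 24 still had an unadjusted p under 0.05 by limma. Cxcl13 moved from -2.56 to -0.17, Il6st from -1.52 to -0.36, Ccr6 from -1.26 to -0.46 and Reg1 from 3.22 to 0.60. Reg1 is itself 1 of the acinar genes averaged in a covariate, so its move is in part built in. Itln1 moved the other way, from 4.31 to 6.85. Ccn3 stood at 2.19, Sdc4 at -1.87, Gas5 at -0.87, Deptor at 0.77 and Xpnpep2 at 1.04.

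**Figure D3:**
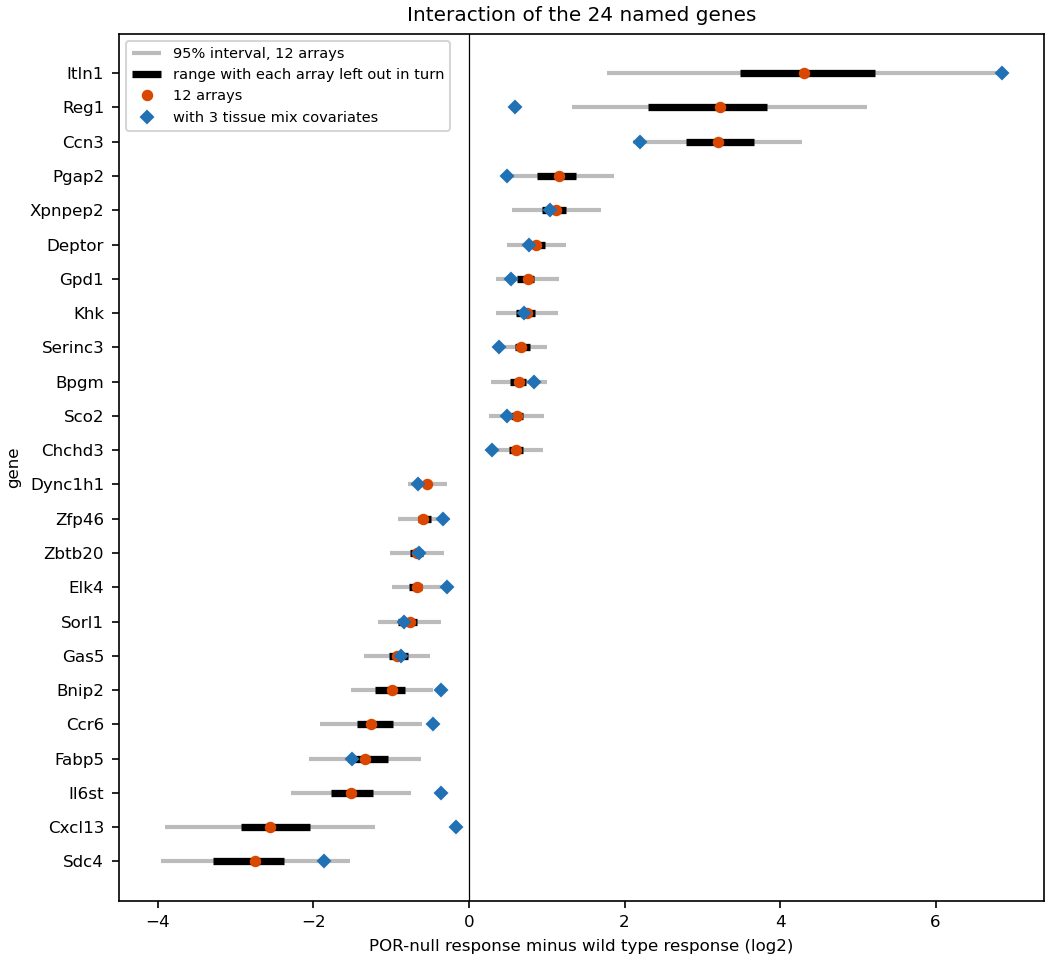
Interaction of the 24 named genes on the x axis (POR-null response minus wild type response, log2), with the estimate and 95% interval from 12 arrays, the range with each array left out in turn and the estimate with 3 tissue mix covariates. The ranges with 1 array left out stay on their side of 0 for all 24 genes, which were chosen on these same arrays. The covariates bring Cxcl13 to -0.17 and Reg1, itself 1 of the acinar genes in a covariate, to 0.60.

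Genes chosen in 1 genotype were then read in the other. The arrays of the other genotype entered the choice through the shared estimate of spread and the signal filter, but not through the response. The 8 genes of smallest p for quercetin in wild type mice were Ccn3, Deptor, Gas5, Sco2, Plbd1, Kdelr2, Bpnt1 and Ephx1. In POR-null mice 3 of the 8 had the same sign and 0 had an unadjusted p under 0.05 by limma, against 2.82% of all probe sets. The smallest was 0.0560, for Plbd1, a lysosomal phospholipase-like protein. Plbd1 was the 1 gene of the 8 to separate in the same direction in both, at 7.46 to 7.62 against 8.05 to 8.63 in wild type mice and at 7.37 to 7.79 against 7.82 to 7.96 in POR-null mice. Its interaction of -0.43 had a 95% interval of -0.88 to 0.02. Ephx1, the microsomal epoxide hydrolase, was 0.45 log2 units higher with quercetin in wild type mice and 0.01 lower in POR-null mice. Kdelr2, a retrieval receptor of the secretory pathway, and the nucleotidase Bpnt1 were lower in both, by 0.53 and 0.60 in wild type and by 0.14 and 0.17 in POR-null mice.

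The 8 genes of smallest p in POR-null mice were Sorl1, Btg2, Gna13, Sdc4, Elf3, Egfr, Zfp46 and Gbp2b. Gbp2b and Egfr reached the signal filter only through a POR-null group, so no count over these 8 is read against all probe sets. In wild type mice Btg2 had the same sign, Gbp2b stood between 5.07 and 5.20 in all 6 arrays, and Sdc4 had an unadjusted p of 0.0115 by limma in the opposite direction. The growth arrest gene Btg2 was 0.48 lower in POR-null mice and 0.19 lower in wild type mice, so the genotypes shared its direction. The G protein subunit Gna13, the epithelial factor Elf3 and the growth factor receptor Egfr were lower by 0.45, 0.39 and 0.38 in POR-null mice and differed by 0.01, 0.01 and 0.07 in wild type mice. Their 95% intervals of the interaction were -0.79 to -0.14, -0.71 to -0.10 and -0.75 to -0.15. The brightest other probe sets gave -0.57 for Gna13 and 0.12 for Egfr.

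Gbp2b, an interferon-induced guanylate binding protein, lay between 4.96 and 5.33 in 10 arrays and at 7.47 (array 2) and 7.86 (array 3) in the POR-null quercetin group, whose array 1 stood at 5.25. The interaction was 1.72 (SE 0.66). Without POR-null quercetin array 1 it was 2.53, with an adjusted p of 3.10e-04 by limma. That omission takes out the low array of the group and with it most of the group's spread, so the pass is a description. Without POR-null quercetin array 3 the interaction was 1.22. With single arrays left out the adjusted p of limma reached 0.9997. The related Gbp2 ran against it, at -1.37, with wild type arrays of 8.32, 7.02 and 6.55 against 8.31, 8.22 and 8.58 on quercetin. The 29 measured genes of the interferon and guanylate binding list had a median interaction of -0.24, with 1 at an unadjusted p under 0.05 higher (1.77% of all genes) and 4 lower (2.87%). Leaving out wild type control array 3 brought the median to -0.10, and leaving out wild type quercetin array 3 brought it to -0.13.

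The known routes of quercetin were read from fixed genes and lists. Cyp1a1, the defining target of the aryl hydrocarbon receptor, was 6.10, 5.91 and 5.89 against 6.02, 5.90 and 6.11 on quercetin in wild type mice. In POR-null mice it was 5.80, 6.16 and 6.13 against 6.16, 5.95 and 5.97 on quercetin. All groups overlapped, and the interaction of -0.05 had a 95% interval of -0.40 to 0.31. Cyp1b1, a further target, gave -0.48 (-0.97 to 0.01), and the quinone reductase Nqo1, shared by this receptor and NRF2, gave 0.59 (-0.12 to 1.30). Leaving out wild type control array 2 brought Nqo1 to 0.29, and leaving out POR-null control array 1 brought Cyp1b1 to -0.29. The heme oxygenase Hmox1 gave 0.02 (-0.27 to 0.31). The 10 measured genes of the aryl hydrocarbon receptor list split into 5 higher and 5 lower with a median of 0.02, and none had an unadjusted p under 0.05.

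Cyp3a11, a P450 of drug and steroid oxidation, had the largest interaction of the P450 list, with a wide spread. Its signal was 9.71, 8.89 and 8.77 against 5.60, 8.50 and 7.22 on quercetin in wild type mice, and 8.65, 8.12 and 5.87 against 8.57, 9.11 and 8.07 in POR-null mice. The interaction was 3.05 (SE 1.00, 95% interval 0.88 to 5.22). The low arrays, wild type quercetin array 1 and POR-null control array 3, were also the lowest for the small intestinal lipid carrier Fabp1 (4.59 and 5.06 against 7.01 to 9.36 in the other 10). The mean of the 17 small intestinal absorptive genes was 7.23 and 7.75 in these arrays, against 7.85 to 8.99 in the other 10. Not all members followed: Slc5a1 was 8.91 in POR-null control array 3, against 8.88 and 8.89 in POR-null control arrays 1 and 2. Of the 35 measured P450 genes 24 were higher, against 50.7% of all genes, with 3 at an unadjusted p under 0.05 higher (background 1.77%) and 1 lower (background 2.87%) and a median of 0.08. Cyp2d22 gave 0.57 and Cyp2e1 -1.19.

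Conjugating enzymes, which attach glucuronic acid, sulfate, methyl groups or glutathione, were mostly higher in the POR-null response. Of 33 measured genes 26 were higher, against 50.7% of all genes, and 5 had an unadjusted p under 0.05 higher (background 1.77%) and 0 lower, with a median of 0.21 against 0.00 over all genes. Gstm3 was 9.14, 8.96 and 9.00 against 8.58, 8.76 and 8.50 on quercetin in wild type mice, without overlap, and gave 0.59. The glutathione transferases Gsta4 and Mgst2 gave 0.82 and 0.41, and the thiopurine methyltransferase Tpmt 0.59. Of the 23 NRF2 target genes 19 were higher, against 50.7% of all genes, with 1 at an unadjusted p under 0.05 higher (1.77% of all genes) and 1 lower (2.87%). The median was 0.15, and 0.07 without wild type control array 2 or 0.29 without wild type control array 1. The smallest p was that of the carbonyl reductase Cbr3, at 1.28, whose POR-null arrays were 8.16, 7.33 and 6.98 against 8.09, 8.48 and 8.05. Ephx1, in the same list, gave -0.46. With the 3 tissue covariates the medians turned to -0.03 for the conjugating, -0.08 for the NRF2 and -0.10 for the P450 genes.

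Genes of metal handling and of fatty acid use lay to the same side. The metallothioneins Mt1 and Mt2, which bind zinc and copper, gave 0.75 and 1.09. Mt2 was 9.43, 9.24 and 9.90 against 10.01, 10.11 and 10.73 on quercetin in POR-null mice, without overlap, and 9.86, 10.29 and 10.24 against 10.46, 9.73 and 9.20 in wild type mice, with overlap. The zinc carriers Slc39a14 and Slc30a1 gave 0.57 and 0.35, and 5 of the 16 iron and metal genes had an unadjusted p under 0.05 higher (1.77% of all genes) and 0 lower (2.87%), with a median of 0.14 that became 0.07 when POR-null quercetin array 1 was left out and 0.09 when wild type control array 2 was. Of 31 fatty acid oxidation and uptake genes 28 were higher, against 50.7% of all genes, 4 at an unadjusted p under 0.05 (1.77% of all genes), and 1 was lower at such a p (2.87%). The median was 0.17, and 0.09 without wild type control array 2 or 0.28 without wild type control array 1. The fatty acid transporters Slc27a2 and Slc27a4 gave 0.65 and 0.66, the electron carrier Etfa 0.36, and the scavenger receptor Cd36, the 1 lower at such a p, -0.76. With the tissue covariates the medians were 0.07 for the metal and -0.16 for the fatty acid genes.

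The clock gene Bhlhe40 gave 0.46, the survival gene Mcl1 of the immediate early list -0.69, the lipogenic desaturase Scd1 -1.58, the hypoxia gene Egln3 -0.79 and the antimicrobial enzyme Lyz1 -2.57. Each was the member of smallest or second smallest p in its list. The medians of the circadian clock, immediate early, lipogenic, glycolysis and hypoxia, and epithelial defence lists were 0.09, 0.06, -0.10, -0.12 and -0.08. The clock median was -0.055 without POR-null control array 1, and the immediate early median ran from -0.04 to 0.037 with single arrays left out, so neither sign was stable. Without POR-null control array 1 the proliferation median was 0.02, and those of oxidative phosphorylation and heat shock turned to -0.02 and -0.03 without wild type control array 2. Cholesterol synthesis (19 genes, median -0.07), oxidative phosphorylation (58 genes, 0.03), heat shock (18 genes, 0.08) and proliferation (28 genes, -0.13) had no member at an unadjusted p under 0.05. Scd1 was highest in POR-null control arrays 1 and 2 and wild type quercetin array 2, at 9.27, 8.60 and 7.88, where the fat cell gene Adipoq also was, at 7.27, 6.44 and 6.54 against 3.90 to 5.63 in the other 9. Cyp2e1 (6.85, 6.96 and 7.05) and Fabp5 (6.30, 6.23 and 6.66) were highest in the same 3 arrays, and the part of fat tissue in these values was not tested. Adipoq is 1 of 9 measured adipocyte genes, most of which did not follow it, and their median interaction was -0.14. Ribosomal protein genes were lower in 23 of 26, while 50.7% of all genes were higher, with a small median of -0.09. At an unadjusted p under 0.05 there were 2 lower (2.87% of all genes) and 0 higher (1.77%).

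**Figure D4:**
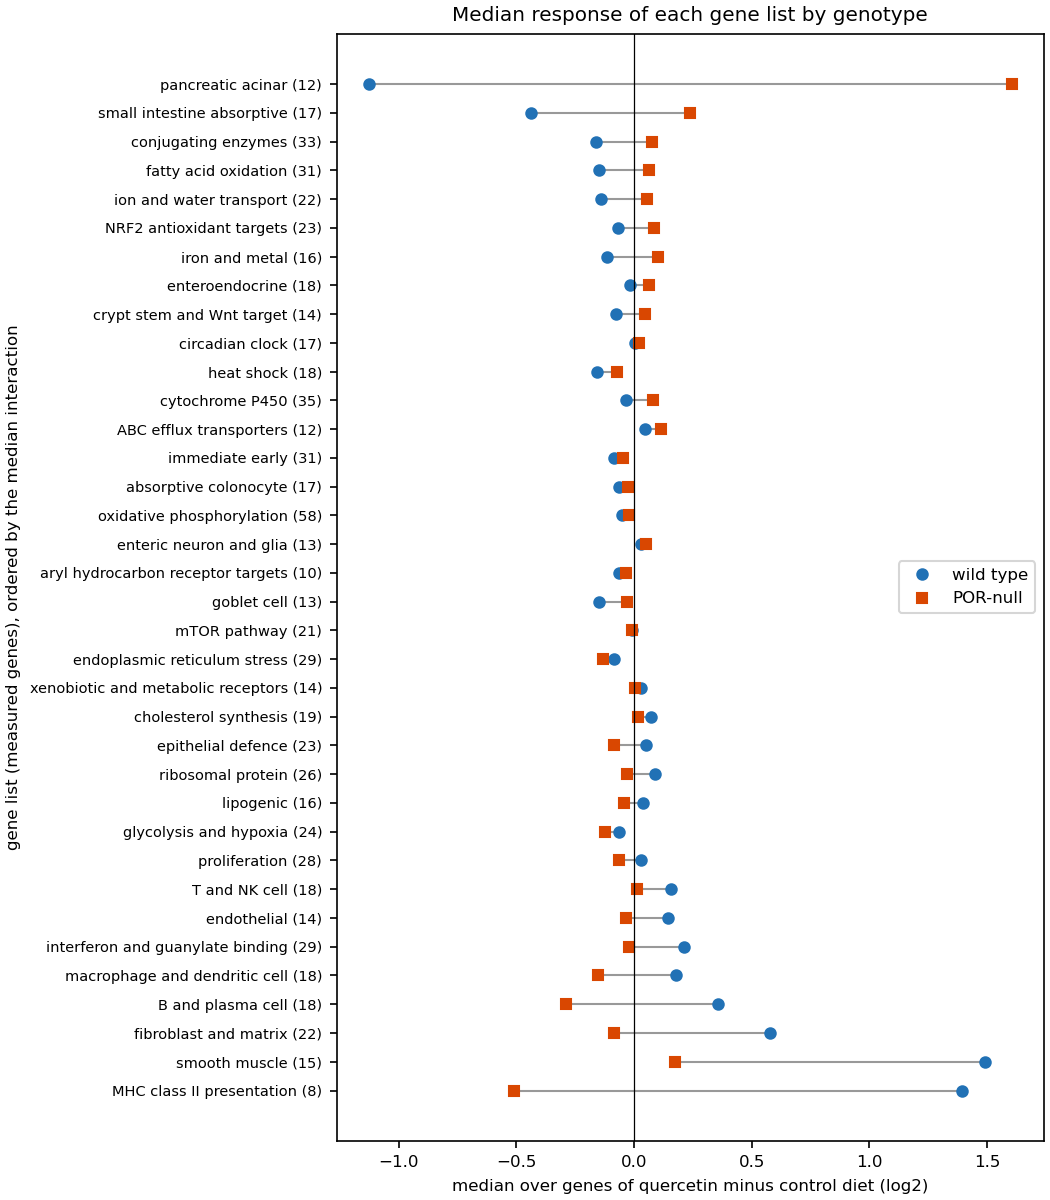
Median response to quercetin (log2, x axis) over the measured genes of each of 36 lists in wild type (circles) and POR-null mice (squares), ordered by the median interaction. Pancreatic acinar genes had medians of -1.13 and 1.60, MHC class II genes 1.40 and -0.51 and smooth muscle genes 1.49 and 0.17, while most epithelial lists lay near 0 in both genotypes.

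Markers of other tissues and cells were among the lists with the largest differences. Over all genes 50.7% had a higher response in POR-null mice. The 12 measured pancreatic acinar genes, which encode digestive enzymes, had a median interaction of 2.81, with 11 higher and 9 of these at an unadjusted p under 0.05 (1.77% of all genes). Their mean signal was 8.89, 7.49 and 6.19 against 6.06, 7.15 and 6.24 on quercetin in wild type mice, and 6.18, 6.25 and 6.19 against 6.88, 9.83 and 6.48 in POR-null mice. Wild type control array 1 and POR-null quercetin array 2 stood above the rest, and the median was 1.71 without the latter and 0.93 without both. The carboxypeptidase Cpb1 was 10.29 in POR-null quercetin array 2 and 5.07 to 9.21 in the others.

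The 15 smooth muscle genes were all lower, with a median of -1.27 and none at an unadjusted p under 0.05. Their mean was 6.31, 6.15 and 6.10 against 6.43, 7.62 and 9.37 on quercetin in wild type mice, and 7.50, 7.67 and 6.30 against 7.63, 7.30 and 7.30 in POR-null mice. Wild type quercetin array 3 was the highest, and without it the median was -0.51, while without wild type quercetin array 1 it was -1.93. The myosin light chain Myl9 was 10.02 in that array and 5.11 to 8.12 in the others. Of the 22 fibroblast and matrix genes 18 were lower, while 50.7% of all genes were higher. The dermatopontin gene Dpt, the 1 member at an unadjusted p under 0.05 (2.87% of all genes lower), gave -1.53. The median of the list was -0.66. This median was -0.42 when either wild type quercetin array 3 or control array 3 was left out, and -0.43 when POR-null control array 1 was.

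Genes of antigen presentation and of B cells were lower in the POR-null response. All 8 MHC class II genes were lower, 6 at an unadjusted p under 0.05 (background 2.87%), with a median of -1.89. The invariant chain Cd74 was 9.87, 8.07 and 7.85 against 9.49, 10.59 and 10.93 on quercetin in wild type mice and 10.70, 9.64 and 9.34 against 8.97, 9.32 and 9.48 in POR-null mice. Both pairs of groups overlapped. The peptide loader H2-DMa gave -2.00. Of 18 B and plasma cell genes 15 were lower, 9 at an unadjusted p under 0.05 (2.87% of all genes), and 1 of the 3 higher genes also had one (1.77%), with a median of -0.64. The B cell receptor chain Cd79b gave -2.69 and the follicular receptor Cxcr5 -0.98. Macrophage and dendritic genes had a median of -0.33 with 3 of 18 at an unadjusted p under 0.05 lower (2.87% of all genes), led by the lysozyme Lyz2 at -2.30, and T and NK cell genes -0.16 with none.

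Of the markers of the sampled epithelium, the 17 absorptive colonocyte genes had a mean of 11.45 to 11.73 in the 12 arrays and a median interaction of 0.04, and the 13 goblet cell genes 0.00. Of the goblet cell genes 6 were higher and 6 lower, from -0.76 to 0.95. At an unadjusted p under 0.05 by limma, Spdef (0.95) and Klk1 (0.49) were higher (1.77% of all genes). Fcgbp (-0.66) was lower at such a p (2.87%). Small intestinal absorptive genes had a median of 0.62 with 15 of 17 higher, against 50.7% of all genes. Their mean was 8.99, 8.07 and 8.22 against 7.23, 8.51 and 8.20 on quercetin in wild type mice, so that wild type control array 1 was the highest and wild type quercetin array 1 the lowest. The median was 0.38 without wild type control array 1 and 0.28 without that array and POR-null quercetin array 2. The glucose carrier Slc5a1 was the 1 member at an unadjusted p under 0.05 (1.77% of all genes higher), at 0.57, and separated in opposite directions in the genotypes. How far these tissue markers enter the values of Cxcl13, Ccr6, Reg1 and Cyp3a11 was not tested beyond the fit with covariates. In that fit Cyp3a11 did not shrink but moved from 3.05 to 3.60, and the small intestinal list was not among its covariates.

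**Figure D5:**
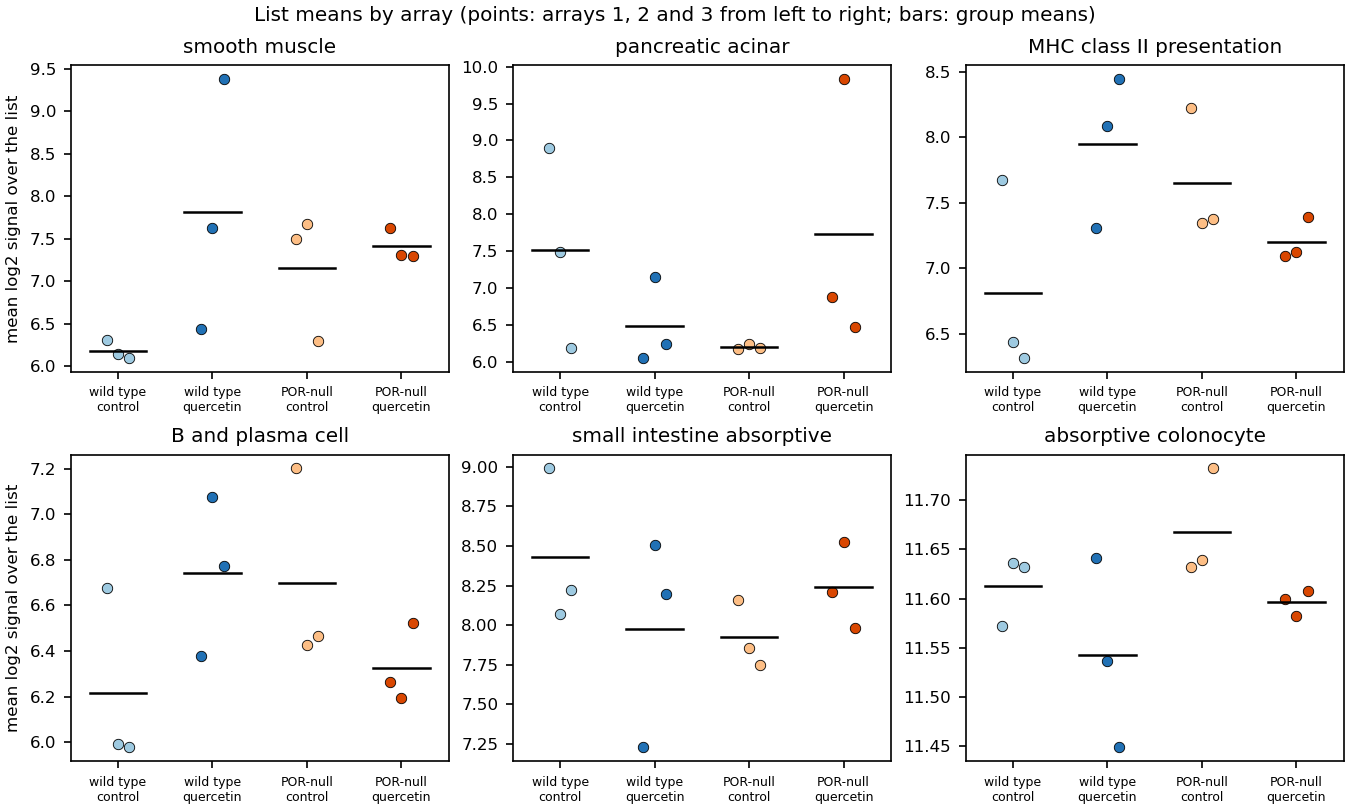
Mean log2 signal over each of 6 marker lists in the 12 arrays (points) with group means (bars). Wild type control array 1 (8.89) and POR-null quercetin array 2 (9.83) stand out for pancreatic acinar genes and wild type quercetin array 3 (9.37) for smooth muscle genes, while absorptive colonocyte means lie within 11.45 to 11.73.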

How the data were processed

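Values were the deposited log2 signals of 22690 probe sets on 12 Affymetrix 430A arrays, used as the authors made them. MAS5 and RMA are listed in the submitters' processing notes with no role or version, and how probes were summarized and arrays normalized is not stated in the sources used here. That the scale is log2 was taken from the values, which ran from 2.7 to 14.09. Array medians lay between 5.9 and 5.98, and correlations between arrays between 0.981 and 0.995. The 64 control probe sets were left out, no filter on signal was set, and symbols came from the platform annotation (691 probe sets had several and 1555 none).

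One model with 4 group means was fitted to all 12 arrays with limma 3.58.1 in R 4.3.3 (lmFit, eBayes with an intensity trend, 12.9 degrees of freedom), with 3 contrasts: quercetin in each genotype and the interaction. Tests were two-sided, with Benjamini-Hochberg adjustment over 22626 probe sets. On simulated data with independent noise in each probe set, the mean estimates of the fit lay near the known changes. That simulation held no tissue variation shared between probe sets, so it does not give the sensitivity in these arrays. The labels do not pair arrays of the same number, and no pairing entered.

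Named genes had 1 symbol, with 1 probe set per gene. The 12 higher and 12 lower of smallest interaction p and the 8 of smallest p in each genotype also had a signal filter. Their highest group mean was at least the median signal (5.94). The 5 fixed genes (Cyp1a1, Cyp1b1, Nqo1, Cyp3a11, Hmox1) and up to 4 members per list by smallest interaction p had no such filter. Some of these lay below it, as Hmox1 (highest group mean 5.88), Cxcr5 (4.98) and Cd36 (4.43) did. The 36 lists used the brightest probe set of each gene. The members and lists were chosen with earlier results of these data known. Lists are described by counts and medians without a test. Alternatives were other priors, a signal filter, quantile or median scaling, array weights, the replicate number as a block, 1 probe set per gene, tissue covariates and single arrays left out. Leaving out the arrays of the highest pancreatic or smooth muscle signal was chosen after seeing the data. Promoters were the 250 bases before the start in RefSeq GRCm38.p6.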

Additional observations from a re-analysis of the deposited data

How the results depend on the processing

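The interaction passed for 0 probe sets in 12 arrays and under every other setting except with single arrays left out, where the count ran from 0 to 1: Ccn3 passed without wild type quercetin array 1 and Gbp2b without POR-null quercetin array 1. In both cases the array left out was the array of its group nearest to the control values of that gene. With single arrays left out the wild type count ran from 0 to 3 (3 without wild type quercetin array 1) and the POR-null count from 0 to 1 (1 without POR-null quercetin array 1). With array weights the wild type count was 2. Probe sets at an unadjusted p under 0.05 for the interaction ran from 556 with the tissue covariates to 2670 with array weights. The cause was not tested.

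With the replicate number as a block the interaction count was 0, the smallest adjusted p of limma 0.119 and 1180 probe sets had an unadjusted p under 0.05. The block changed no call. Of the 18 correlations between the deviations of same-numbered arrays 6 were over 0.1 (-0.19 to 0.26). The 3 pairs of wild type control with POR-null control were all over 0.1 (0.19, 0.11 and 0.26), and those of the diets within a genotype were not (-0.19 to 0.05).

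The 24 named interaction genes kept their sign under each alternative that keeps their probe set, which their choice on the same arrays made likely. With 1 probe set per gene, the brightest, 7 of the 24 are read from another probe set: 5 had the same sign, while Chchd3 turned to -0.09 and Pgap2 to -0.01. The near-zero value of Cyp1a1 (-0.05) ran from -0.16 to 0.018 with single arrays left out, and was 0.0033 without wild type quercetin array 3 or POR-null control array 3. That of Hmox1 (0.02) ran from -0.055 to 0.085 with single arrays left out, and was -0.022 without POR-null quercetin array 3 and -0.12 with the tissue covariates. The Nqo1 value (0.59) was 0.29 without wild type control array 2 and 0.20 with the tissue covariates, and that of Cyp1b1 (-0.48) was -0.29 without POR-null control array 1, -0.12 with the covariates and -0.18 with array weights. With the tissue covariates the list medians of fibroblast (0.37), endothelial (0.24), macrophage and dendritic (0.08), MHC class II (0.06) and B and plasma cell genes (0.05) changed sign, and so did absorptive colonocyte (-0.13), oxidative phosphorylation (-0.11), heat shock (-0.12), immediate early (-0.10), cholesterol synthesis (0.11) and lipogenic genes (0.03), besides the conjugating, NRF2, P450 and fatty acid lists. In all, 19 of the 35 lists with a median other than 0 turned with these covariates and 12 with at least 1 single array left out. The MHC class II, smooth muscle and acinar lists are themselves the covariates. The number of arrays, 3 in each group, limits the precision.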

Other observations

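Some genes of fat tissue also had large interactions. They were picked after values were seen, and 9 of a list of 11 adipocyte genes were measured. Of the 9, 3 were lower at an unadjusted p under 0.05 by limma (2.87% of all genes) and 0 higher (1.77%). The choice favours such a count, so the share is no test of it. The hormone gene Adipoq (adiponectin) was 3.90, 4.11 and 4.04 against 4.08, 6.54 and 5.63 on quercetin in wild type mice, and 7.27, 6.44 and 3.95 against 4.44, 5.15 and 3.93 in POR-null mice, an interaction of -2.78 (SE 1.01). The carbonic anhydrase Car3 gave -3.11 (SE 1.18) and the lipid carrier Fabp4 -2.65 (SE 1.02). For each of these genes the highest arrays were POR-null control array 1 and wild type quercetin array 2 or POR-null control array 2. The other 6 lay between -0.30 (Lpl) and 0.58 (Pck1), and the median over the 9 was -0.14. No adipocyte gene passed the adjustment of limma (adjusted p 0.998).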
